A study of Mus musculus with 12 samples.

Results

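The genes described here are Csf2, Csf1, Il3, Spp1 and Il23a, which encode secreted inflammatory proteins that helper T cells can make. They were taken as the rows whose gene symbol equalled a listed symbol, which gave 5 of the 45703 genes in each of 2 TPM tables (TPM is a read count corrected for the length of the gene's exons and for the size of the library). The libraries came from mouse CD4 T cells in 4 groups of 3: Th17 GLUT3-deficient, Th17 wild type, Th1 GLUT3-deficient and Th1 wild type. GLUT3-deficient cells carried the genotype Slc2a3-fl/fl Cd4-cre, in which Cre driven by Cd4 removes the floxed glucose transporter gene Slc2a3 in cells that have expressed Cd4, and all mice were C57BL/6. The cells of every group had started as naive T cells and had spent 3 days in culture with antibodies to CD3 and CD28 and with cytokines that favour Th17 or Th1 cells. The labels give no age of the animals and do not say whether replicates were separate animals or cultures, so every p-value reflects no more than the scatter of these libraries, part or all of which may be technical.

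Csf2 encodes GM-CSF, Csf1 encodes M-CSF and Il3 encodes interleukin 3, all growth factors of myeloid cells. GM-CSF and interleukin 3 share the receptor subunit Csf2rb, and M-CSF acts through Csf1r. Spp1 encodes osteopontin, a secreted phosphoprotein that binds integrins and CD44. Il23a encodes the p19 subunit of interleukin 23, which is complete only when joined to p40, the product of Il12b, and which acts on Th17 cells through Il23r and Il12rb1. In mice, GM-CSF made by T cells is known as an effector of autoimmune inflammation, and interleukin 23 as a cytokine that favours it.

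In GRCm38.p6, the genes lie on chromosome 11 from 54247270 to 54249899 (Csf2, minus strand), chromosome 3 from 107741048 to 107760469 (Csf1, minus strand), chromosome 11 from 54265085 to 54267279 (Il3, minus strand), chromosome 5 from 104435111 to 104441053 (Spp1, plus strand) and chromosome 10 from 128296140 to 128298084 (Il23a, minus strand). All 5 are annotated as protein-coding. Csf2 and Il3 are neighbours, with 15186 bases between them. The 250 bases before the RefSeq start (for Spp1, the upstream one of 2) are shown for Spp1, which had the largest rise of all genes tested in Th1 cells, and for Il3, the only one of the 5 with a negative fold change there. Each is printed from 5′ to 3′ on the gene's strand, with matches to the searched motifs in capitals.
Spp1, chr5:104434861-104435110: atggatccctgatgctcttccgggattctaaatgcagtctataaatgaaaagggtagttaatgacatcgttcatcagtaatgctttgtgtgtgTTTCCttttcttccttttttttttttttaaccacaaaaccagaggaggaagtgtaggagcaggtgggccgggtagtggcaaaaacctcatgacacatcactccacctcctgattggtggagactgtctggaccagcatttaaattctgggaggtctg
Il3, chr11:54267280-54267529: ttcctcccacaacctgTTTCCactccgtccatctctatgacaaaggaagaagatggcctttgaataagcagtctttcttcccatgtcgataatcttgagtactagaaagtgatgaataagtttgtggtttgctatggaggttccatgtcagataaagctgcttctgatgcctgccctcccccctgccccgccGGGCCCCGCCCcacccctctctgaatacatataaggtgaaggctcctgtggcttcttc
Among the motifs searched on both strands were the AP-1 site TGANTCA, the NFAT core GGAAA, the NF-kB consensus, the STAT site TTCNNNGAA, the E-box CACGTG and the T-box site GGTGTGA. Spp1 held 1 NFAT core, 157 bases before the start, and none of the other motifs. Il3 held 1 NFAT core, 234 bases before the start, and a pair of overlapping NF-kB matches near the start. The NFAT core occurred in 55.6% and the NF-kB consensus in 45.8% of the 32851 RefSeq promoter windows of this length, so neither match sets these windows apart.

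Slc2a3 did not overlap between the genotypes, at 3.30 to 18.7 TPM in Th17 GLUT3-deficient and 44.6 to 379 TPM in Th17 wild type, and at 4.49 to 7.97 TPM in Th1 GLUT3-deficient and 64.7 to 398 TPM in Th1 wild type. The labels do not say which part of Slc2a3 is deleted. The libraries held 16596283 to 28496606 reads. Th17 GLUT3-deficient replicate 2 stood apart, with a median absolute log2 difference of 0.62 from its group against 0.14 to 0.42 in the other 11 libraries, and with 335 TPM of Cd4 against 44.8 to 88.8 TPM elsewhere. The T cell gene Cd3e was at 202 TPM or more in all 12 libraries. Il17a, the cytokine that gives Th17 cells their name, was at 18.3 to 74.4 TPM in Th17 and 0 to 15.4 TPM in Th1 libraries.

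**Figure D1:**
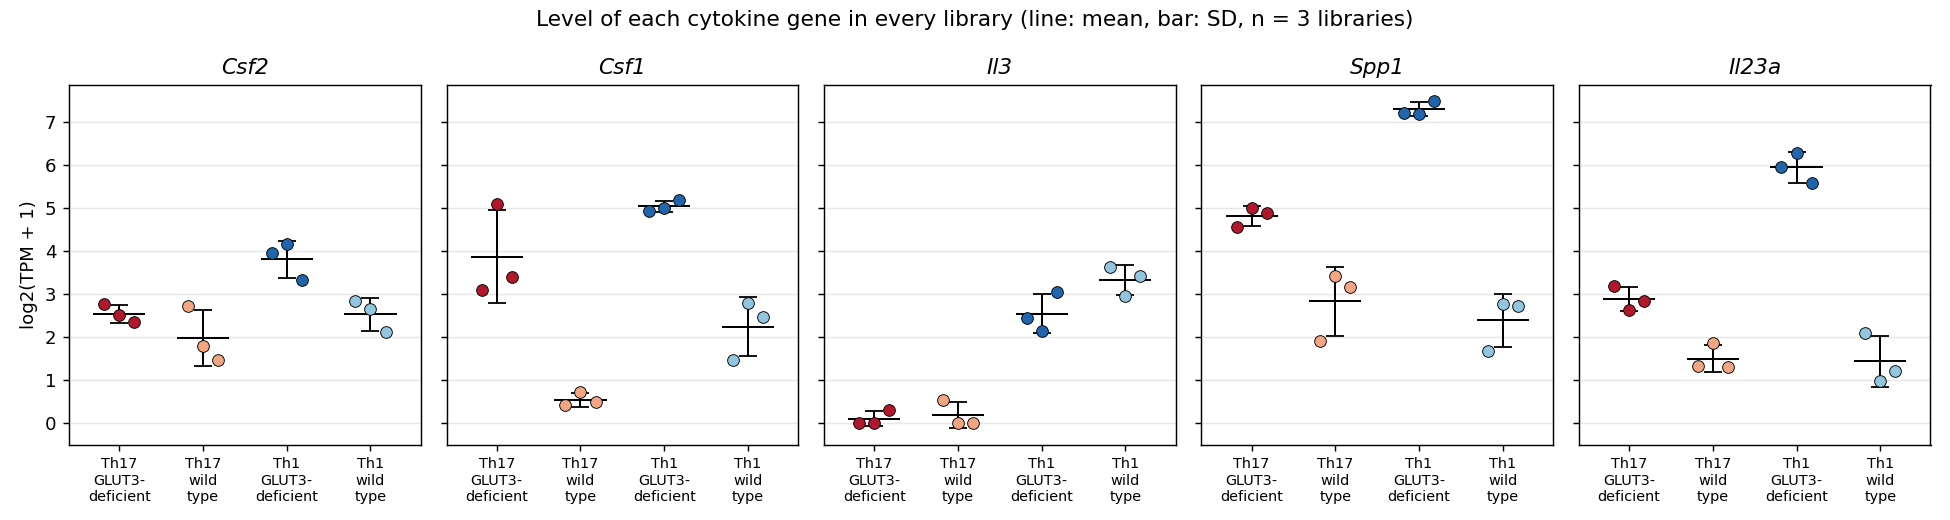
Level of each cytokine gene in every library as log2(TPM + 1) on the y axis, by group on the x axis; points are libraries, lines are group means and bars are the SD over 3 libraries. Spp1 and Il23a stand highest in the 3 Th1 GLUT3-deficient libraries, and Il3 stands at or near 0 in all 6 Th17 libraries.

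Among the growth factors, Csf1 showed the largest rise. In Th17 cells Csf1 had 7.55, 33.3 and 9.59 TPM in GLUT3-deficient replicates 1, 2 and 3, against 0.338, 0.647 and 0.391 TPM in wild type. All 3 deficient libraries exceeded all wild-type ones, and the highest value belonged to the library that stood apart. The log2 fold change was 3.33 ± 0.52 (SE; limma adjusted p = 0.0144, 3 against 3 libraries). All fold changes given here come from log2(TPM + 1), and the added 1 shrinks those of weakly expressed genes. In bulk RNA, a change in the number of cells that make a transcript and a change in its amount per cell cannot be told apart. Csf1 passed the filter of 1 TPM in at least 3 libraries of the comparison only through the deficient group, so it could not be tested without any 1 of those libraries, and its call was lost without any 1 wild-type library (adjusted p 0.0668 to 0.0837).

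In Th1 cells Csf1 stood at 29.5, 31.2 and 35.5 TPM in GLUT3-deficient libraries, against 1.76, 5.87 and 4.48 TPM in wild type. The groups lay far apart, with little spread among the deficient libraries. This was a log2 fold change of 2.81 ± 0.31 (limma adjusted p = 0.00037, 3 against 3 libraries). The effects in Th17 and Th1 differed by 0.52 ± 0.66 (Th17 minus Th1, adjusted p = 0.9997 in a limma model of all 12 libraries). Its sign turned to -0.10 without Th17 GLUT3-deficient replicate 2 and to -0.25 with a pseudocount of 5. Over all settings tried the difference ranged from -0.25 to 1.68 and never passed (lowest limma adjusted p = 0.707).

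Csf2 stood at 5.79, 4.70 and 4.09 TPM in Th17 GLUT3-deficient libraries, against 5.57, 2.43 and 1.75 TPM in Th17 wild type. The groups overlapped, because wild-type replicate 1 lay close to the highest deficient library. With a log2 fold change of 0.56 ± 0.37 (limma adjusted p = 0.385, 3 against 3 libraries), Csf2 did not pass the threshold of 0.05 in Th17. In Th1 cells Csf2 stood at 14.5, 16.8 and 9.0 TPM in GLUT3-deficient libraries, against 6.11, 5.22 and 3.30 TPM in wild type. Here the lowest deficient library exceeded the highest wild-type one. It rose by a log2 fold change of 1.28 ± 0.27 (limma adjusted p = 0.0067). The difference between the lineages in this effect, -0.73 ± 0.48, did not pass (limma adjusted p = 0.9997).

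Il3 was nearly absent from Th17 cells. Its reads numbered 0, 0 and 3 in the Th17 GLUT3-deficient libraries and 4, 0 and 0 in the Th17 wild-type libraries, in which 3 reads would correspond to 0.224 to 0.514 TPM. It was not tested between the Th17 genotypes, and no fold is given there. In Th1 cells Il3 stood at 4.47, 3.40 and 7.25 TPM in GLUT3-deficient libraries, against 11.4, 6.74 and 9.67 TPM in wild type. Only deficient replicate 3 and wild-type replicate 2 overlapped. These values rest on 29 to 59 reads per deficient library and 66 to 93 reads per wild-type library, and the interval of such counts covers counting error only. The log2 fold change was -0.79 ± 0.27 (limma adjusted p = 0.0524), just short of the threshold.

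That borderline depended on the settings: the adjusted p was 0.0341 with median-of-ratios scaling, 0.0296 with limma voom on the recovered reads, 0.0265 when deficient replicate 3 was left out and 0.0377 when wild-type replicate 2 was, and reached 0.174 without deficient replicate 2. In the Th1 wild-type libraries Il3 was the most abundant of the 5 genes, and in each Th1 GLUT3-deficient library it was the least abundant. The ratio of Csf2 to Il3 in TPM was 3.24, 4.95 and 1.2 in the Th1 GLUT3-deficient libraries, against 0.537, 0.775 and 0.341 in Th1 wild type. The ratios of the groups did not overlap. A ratio shows unequal change and not which of the 2 genes changed.

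Spp1 stood at 22.6, 31.1 and 28.6 TPM in Th17 GLUT3-deficient libraries, against 2.76, 9.65 and 8.02 TPM in wild type. Every deficient library held more than every wild-type one. Spp1 rose by a log2 fold change of 1.98 ± 0.42 (limma adjusted p = 0.0358, 3 against 3 libraries). In Th1 cells Spp1 stood at 147, 146 and 178 TPM in GLUT3-deficient libraries, against 2.2, 5.81 and 5.55 TPM in wild type. The deficient libraries agreed closely, and the mean was 34.7 times that of wild type. The log2 fold change of 4.91 ± 0.28 (limma adjusted p = 3.05e-05) ranked 1 of 13487 genes tested.

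The gain of Spp1 was smaller in Th17 than in Th1 cells (difference of log2 fold changes -2.93 ± 0.54, limma adjusted p = 0.0346 in the 12-library model). This call was lost under 12 of 18 other settings (a pseudocount of 0.1, no filter, and leaving out any 1 library except Th17 GLUT3-deficient replicate 2 and Th17 wild type replicate 1), with adjusted p from 0.00589 to 0.115 over all of them, while the difference stayed between -3.39 and -2.57. The call of the Th17 rise alone was lost with no filter on low values and without deficient replicate 1 or 3 or wild-type replicate 2 or 3 (adjusted p up to 0.117).

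Il23a stood at 8.05, 5.14 and 6.12 TPM in Th17 GLUT3-deficient libraries, against 1.51, 2.63 and 1.45 TPM in wild type. The groups did not overlap. Il23a rose by a log2 fold change of 1.38 ± 0.28 (limma adjusted p = 0.0326), a call that was lost with no filter and without any 1 library other than deficient replicate 2 (adjusted p up to 0.163). In Th1 cells Il23a stood at 61.2, 77.0 and 47.0 TPM in GLUT3-deficient libraries, against 3.29, 0.958 and 1.33 TPM in wild type. Even the lowest deficient library was far above the highest wild-type library, and the mean was 33.2 times that of wild type. The log2 fold change of 4.51 ± 0.30 (limma adjusted p = 4.96e-05) ranked 3 of all genes tested.

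The effect on Il23a was smaller in Th17 than in Th1 cells (difference -3.13 ± 0.45, limma adjusted p = 0.00974). It kept its call under 17 of 18 other settings, the exception being the fit without Th1 GLUT3-deficient replicate 2, at adjusted p = 0.0500323. Without that library the deficient Th1 group still held 61.2 and 47.0 TPM.

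**Figure D2:**
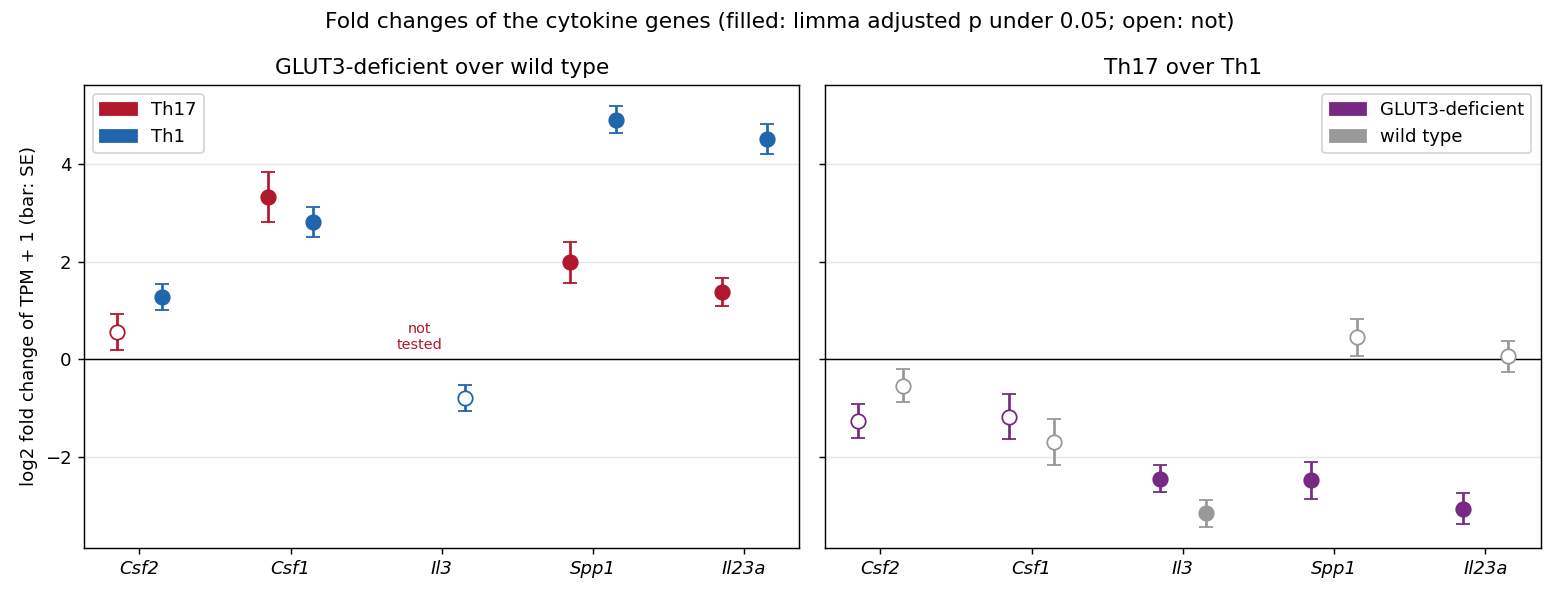
Log2 fold changes of TPM + 1 on the y axis, with SE bars, for each gene on the x axis; the left panel sets GLUT3-deficient over wild type within Th17 and Th1 cells, and the right panel Th17 over Th1 within each genotype. Filled points passed the test. Spp1 (4.91) and Il23a (4.51) lie highest in Th1, and Il3 has no Th17 point on the left because it was not tested.

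Of the 4 genes tested in Th17 cells, 3 rose and none fell, where 7.3% of the 13823 genes tested were called in either direction, 4.6% rose and 2.7% fell. One of the 3 was Csf1, which was tested only because it was high in the deficient group, so this count is a description and supports nothing. No fit that left out 1 library kept all 3: 2 rose without deficient replicate 2, 1 without wild-type replicate 1 and 0 without any 1 of the other 4 libraries. With no filter 1 of 5 rose. In Th1 cells 4 of 5 rose and none fell, where 31.3% of 13487 genes were called, 17.6% rose and 13.7% fell. The groups lay apart, with deficient libraries higher, for 3 of the 4 tested genes in Th17, Csf1 among them (18.5% of all tested genes), and 4 of 5 in Th1 (26.3%). The median log2 fold change of all tested genes was 0.04 in Th17 and 0.03 in Th1. For the difference between lineages 2 of 5 were called, both smaller in Th17, where 0.638% of 14579 genes were called and 0.288% in that direction.

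Between lineages, no gene of the 5 was higher in Th17 than in Th1 by the test, in either genotype or under any setting tried. The lineages were deposited as separate tables. TPM is computed within each library over the same 45703 genes, and levels are set side by side across the tables on that basis. Within GLUT3-deficient cells, Spp1 was lower in Th17 than in Th1 (log2 fold change -2.48 ± 0.38, limma adjusted p = 0.00178), and so was Il23a (-3.07 ± 0.32, adjusted p = 9.12e-05). Within wild type the corresponding values were 0.45 ± 0.38 for Spp1 (adjusted p = 0.645) and 0.06 ± 0.32 for Il23a (adjusted p = 0.943), with overlapping groups for both. The direction of the Il23a value turned to -0.047 with median-of-ratios scaling.

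For Il3, summed over libraries, 3 reads in Th17 against 141 in Th1 GLUT3-deficient cells give a ratio per total reads of 0.0195 (95% exact interval 0.00397 to 0.0581), and 4 against 241 reads in wild type give 0.0141 (0.0038 to 0.0365). The fitted log2 fold changes were -2.45 ± 0.27 within GLUT3-deficient cells (limma adjusted p = 0.000177) and -3.16 ± 0.27 within wild type (adjusted p = 3.95e-05). Il3 reached 1 TPM only in Th1 libraries and so entered these tests only through the lineage in which it was high, and the size of the fitted values depends on the pseudocount.

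For Csf2, Th17 against Th1 in GLUT3-deficient cells narrowly missed the threshold (log2 fold change -1.27 ± 0.34, limma adjusted p = 0.0513, groups apart), and 7 of 18 other settings called it. In wild type Csf2 differed by -0.54 ± 0.34 (adjusted p = 0.522) with overlapping groups. Csf1 differed by -1.18 ± 0.46 in deficient cells (limma adjusted p = 0.186, groups overlapping), and by -1.79 (adjusted p = 0.00384) without Th17 GLUT3-deficient replicate 2. In wild type Csf1 differed by -1.69 ± 0.46 (limma adjusted p = 0.0765, groups apart), and 6 of 18 other settings called it. Among these was the fit with replicate number as a block, where same-numbered libraries were treated as pairs (limma adjusted p = 0.034). Of the 5 genes, 3 were thus lower in Th17 within GLUT3-deficient cells (Il3, Spp1 and Il23a), where 5.91% of 14579 genes were called in either direction and 2.56% were lower, and 1 (Il3) within wild type, where 3.63% were called and 1.78% were lower. The groups lay apart, with Th17 lower, for 4 of 5 genes in GLUT3-deficient cells (10.8% of all tested genes) and 2 of 5 in wild type (7.89%). Il3 is in each of these counts and is the only call in wild type. It was tested only because it was high in Th1, so these counts are descriptions and support nothing.

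By mean level, the order of groups was Th1 GLUT3-deficient, Th17 GLUT3-deficient, Th17 wild type and Th1 wild type for both Spp1 and Il23a, with overlap only between the wild-type groups. For Csf1 it was Th1 GLUT3-deficient (32.1 ± 3.1 TPM, SD, n = 3), Th17 GLUT3-deficient (16.8 ± 14.3), Th1 wild type (4.04 ± 2.09) and Th17 wild type (0.459 ± 0.165), with overlap only between the deficient groups. For Csf2 only Th1 GLUT3-deficient cells (13.4 ± 4.0 TPM) stood above the next group, and the other 3 groups overlapped from one to the next. For Il3 the Th1 groups stood above the Th17 groups, and genotypes overlapped within each lineage.

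The genes whose profile over the 12 libraries was most like that of each cytokine were found by the root mean square difference of log2(TPM + 1) after centring each gene on its mean. For Spp1, whose own values spread by 1.99 around their mean, they were Smpdl3b (0.56), Il22 (0.58) and Iltifb (0.62), and the nearest of the other cytokines was Il23a, at 0.73. Il22 and Iltifb are near-identical copies, so how the reads divide between them is uncertain. For Il23a (spread 1.86) they were Hao1 (0.48), Ccnd1 (0.62) and Cd70 (0.64). For Csf1 (1.78) they were Sema7a (0.47), Il18bp (0.56) and Gbp4 (0.58).

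For Csf2 (spread 0.76) the most alike genes were Ptpre (0.31), Kcnj8 (0.32) and Tigit (0.33), and for Il3 (1.46) Dclk1 (0.28), Serpinb6b (0.38) and Ms4a6d (0.43). Csf2 and its neighbour Il3 were 1.31 apart, more than the spread of Csf2 itself. These distances are descriptions over 12 libraries that share their group structure.

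Around Il3 and Csf2, 4 of 8 tested neighbours rose and none fell in Th17, where 7.3% of all tested genes were called, and 3 of 10 rose and 1 fell in Th1, a share near the 31.3% of all tested genes. Irf1, a transcription factor induced by interferon, rose in Th17 by 2.71 ± 0.30 (267 ± 90 TPM in GLUT3-deficient and 39.3 ± 9.8 TPM in wild type, SD, n = 3; limma adjusted p = 0.00498) and in Th1 by 1.53 ± 0.18 (adjusted p = 0.000553). Il4, the Th2 cytokine, rose in Th17 by 2.80 ± 0.47 (adjusted p = 0.0177) and in Th1 by 0.84 ± 0.17 (adjusted p = 0.0057). The motor protein gene Kif3a rose in both lineages (1.59 and 1.09), and Pdlim4 in Th17 (1.20, adjusted p = 0.0268). The Th17 calls of Il4, Kif3a and Pdlim4 were lost without any 1 of 4 libraries.

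The gene that fell was Acsl6, an acyl-CoA synthetase, which lies on the other side of Il3 from Csf2 and whose lowest coordinate is 38.7 kb above that of Il3. Acsl6 had 1.37, 0.466 and 2.02 TPM in Th1 GLUT3-deficient libraries, against 4.87, 3.91 and 3.20 TPM in Th1 wild type. The groups did not overlap. The log2 fold change was -1.18 ± 0.27 (limma adjusted p = 0.0109), lost only with no filter on low values among the settings tried. Acsl6 was also lower in Th17 than in Th1 wild type (-1.47 ± 0.27, adjusted p = 0.00885; lost without Th17 wild type replicate 3). Of the annotated genes that overlap Csf2 or Il3 on the opposite strand, LOC115487722, which spans Il3, was listed at 0 in all libraries, and Gm12223, which spans Csf2, was above 0 in 1 library, at 0.0150 TPM. Without strand information in these libraries, reads of overlapping genes cannot be told apart.

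**Figure D3:**
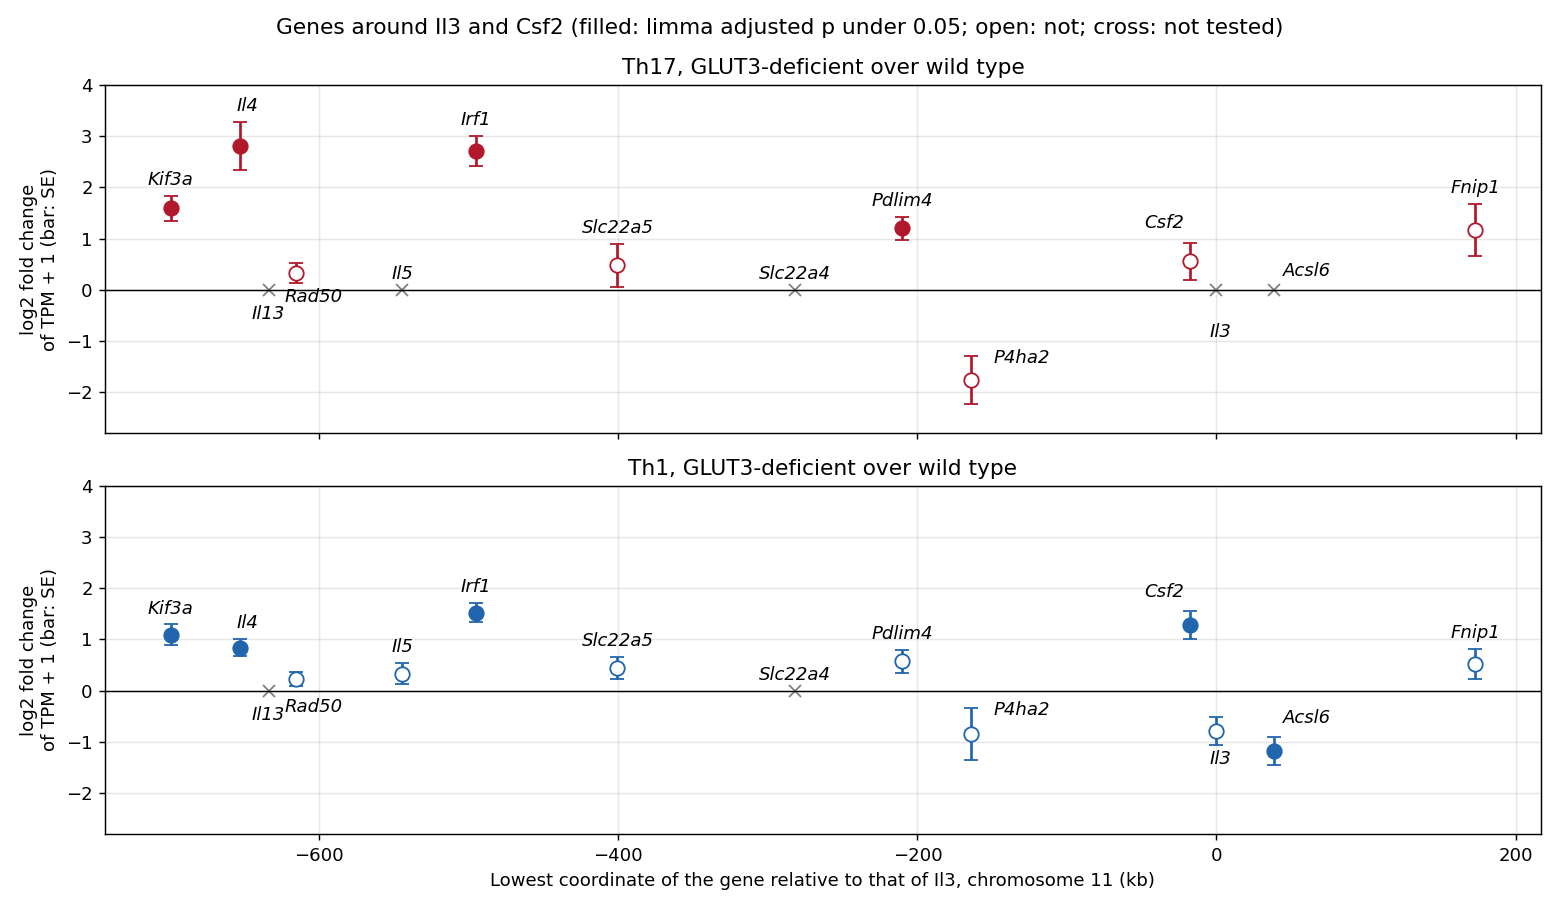
Log2 fold change of TPM + 1, GLUT3-deficient over wild type, with SE bars, against the distance of each gene's lowest coordinate from that of Il3 in kb; Th17 above and Th1 below. Filled points passed the test, open points did not and crosses were not tested. In Th1, Csf2 lies at 1.28 and Il3 and Acsl6 lie below 0.

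Of 24 receptors and partner subunits of these cytokines, 13 were tested in Th17 and 14 in Th1. In Th17 1 rose, a share near the 7.3% of all tested genes: the integrin subunit Itgb1, at 159 ± 94 TPM in GLUT3-deficient and 38.9 ± 2.8 TPM in wild-type cells (log2 fold change 1.85, limma adjusted p = 0.0336), a call lost without any 1 of 4 libraries. In Th1 7 rose and 1 fell, where 17.6% of all tested genes rose and 13.7% fell. Those that rose included the osteopontin-binding integrin subunits Itgav (14.5 ± 1.4 TPM in GLUT3-deficient and 2.73 ± 1.08 in wild-type cells, log2 fold change 2.09) and Itgb1 (1.27), and the interleukin 12 receptor chain Il12rb2 (0.83). Cd44, another osteopontin receptor, did not pass in either lineage (0.87, adjusted p = 0.149 in Th17, and 0.63, adjusted p = 0.0774 in Th1).

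The gene that fell in Th1 was Il23r, the specific receptor chain for interleukin 23. It stood at 3.72, 3.72 and 2.94 TPM in Th1 GLUT3-deficient libraries, against 16.5, 15.2 and 14.3 TPM in Th1 wild type. Receptor and ligand subunit therefore moved in opposite directions in Th1 libraries, with a log2 fold change of -1.88 ± 0.16 for Il23r (limma adjusted p = 0.000128). In Th17 Il23r differed by -0.49 ± 0.30 with overlapping groups (10.6 ± 2.5 TPM in GLUT3-deficient and 15.5 ± 4.2 TPM in wild type, adjusted p = 0.343). Il12b, whose product is needed to complete interleukin 23, had 0 reads in all 12 libraries, which allows up to 0.076 to 0.174 TPM per library at 3 reads.

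Csf1r was under 1 TPM in all 12 libraries. Csf2rb stood at 0.573, 10.2 and 0.599 TPM in Th17 GLUT3-deficient and at most 0.22 TPM in Th17 wild-type libraries, so that only the library that stood apart was high. It stood at 2.57 TPM in Th1 GLUT3-deficient replicate 2, under 1 TPM in the other 2 libraries of that group and at most 0.0616 TPM in Th1 wild-type libraries. It was too low to be tested in either lineage. Il3ra, the specific receptor chain for interleukin 3, stood at 1.79, 7.80 and 3.46 TPM in Th17 GLUT3-deficient and 0.983, 2.51 and 1.04 TPM in Th17 wild-type libraries, which overlapped (log2 fold change 0.98, limma adjusted p = 0.232). In Th1 it stood at 1.37, 1.58 and 1.85 TPM in GLUT3-deficient and 0.564, 1.21 and 0.577 TPM in wild-type libraries, which did not overlap but did not pass (0.56, adjusted p = 0.053).

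Of 27 transcriptional regulators of these cytokines, all of them tested, 1 rose in Th17, the NF-kB subunit Nfkb1 (52.2 ± 17.3 TPM in GLUT3-deficient and 19.8 ± 1.9 TPM in wild type, log2 fold change 1.30, limma adjusted p = 0.0427), a call lost without any 1 library but deficient replicate 2. In Th1 4 rose and 2 fell. Nfkb2 (1.37), Eomes (1.41) and the Th1 factor Tbx21 (1.02, at 226 ± 26 TPM in GLUT3-deficient and 112 ± 18 TPM in wild type) rose, and Ets1 (-1.10) was among those that fell. These shares are below the 7.3% and 31.3% of all tested genes. Eomes was at 2.18 to 4.06 TPM in Th1 GLUT3-deficient and at most 0.592 TPM in Th1 wild-type libraries. It was therefore tested there only because it was high in the deficient group, and its call is a description. Bhlhe40, known as a regulator that GM-CSF production of T cells depends on, stood at 512 ± 124 TPM in GLUT3-deficient and 443 ± 173 TPM in wild-type Th17 cells (adjusted p = 0.667) and at 498 ± 34 TPM in GLUT3-deficient and 475 ± 156 TPM in wild-type Th1 cells (adjusted p = 0.721).

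Other genes of the signature of pathogenic Th17 cells, as defined in mouse work and without the cytokines described here, rose for 5 of 13 tested in Th17 and 8 of 12 in Th1, with none falling in either. Over all tested genes, 4.6% rose and 2.7% fell in Th17, and 17.6% rose and 13.7% fell in Th1. In Th17, the chemokine Ccl4 stood at 275 ± 7 TPM in GLUT3-deficient and 34.1 ± 3.6 TPM in wild type (log2 fold change 2.98, limma adjusted p = 0.000711), and the cytotoxic protease Gzmb at 1101 ± 252 TPM in GLUT3-deficient and 126 ± 37 TPM in wild type (3.14). In Th1, Ccl3 stood at 689 ± 207 TPM in GLUT3-deficient and 30.4 ± 11.9 TPM in wild type (4.48, adjusted p = 4.36e-05). The list had a median log2 fold change of 1.63 in Th17 and 1.18 in Th1, and the non-pathogenic signature 0.78 in Th17 and 1.21 in Th1. Of the non-pathogenic signature, 1 of 9 genes fell in Th17, Cd5l (-2.26, limma adjusted p = 0.0126, lost without deficient replicate 1 or 3). In Th1 1 of 7 fell and 4 rose. Those that rose included Il17a and Il10, an anti-inflammatory cytokine (462 ± 105 TPM in GLUT3-deficient and 61.8 ± 4.7 TPM in wild type, 2.86). Il17a was under 1 TPM in all Th1 wild-type libraries and entered the test only through the deficient group. The Th1 count and median of this signature are therefore partly fixed by the filter.

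Other helper T cell cytokines rose for 8 of 25 tested in Th17 (4.6% of all tested genes) and 17 of 26 in Th1 (17.6%), where 3 fell (13.7%). Ifng and the costimulatory ligand Tnfsf9 rose in both (4.2 and 3.83 in Th17, 3.43 and 4.70 in Th1). Lta and Il21 rose in Th1 by 2.25 and 2.34. Il17a and Il17f also rose in Th1 (2.47 and 1.29). Both were under 1 TPM in all Th1 wild-type libraries and entered the test only through the deficient group. The Th1 count of other cytokines is therefore partly fixed by the filter. Leaving out Th17 GLUT3-deficient replicate 2 gave 7 of 13 pathogenic signature genes, 9 of 24 other cytokines (2 fell) and 4 of 9 non-pathogenic signature genes (2 fell) in Th17. It gave 2 of 12 receptors and partners, 2 of 26 regulators (1 fell) and 4 of 8 neighbours. The lists were chosen with earlier results of these data known, so their counts are descriptions.

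**Figure D4:**
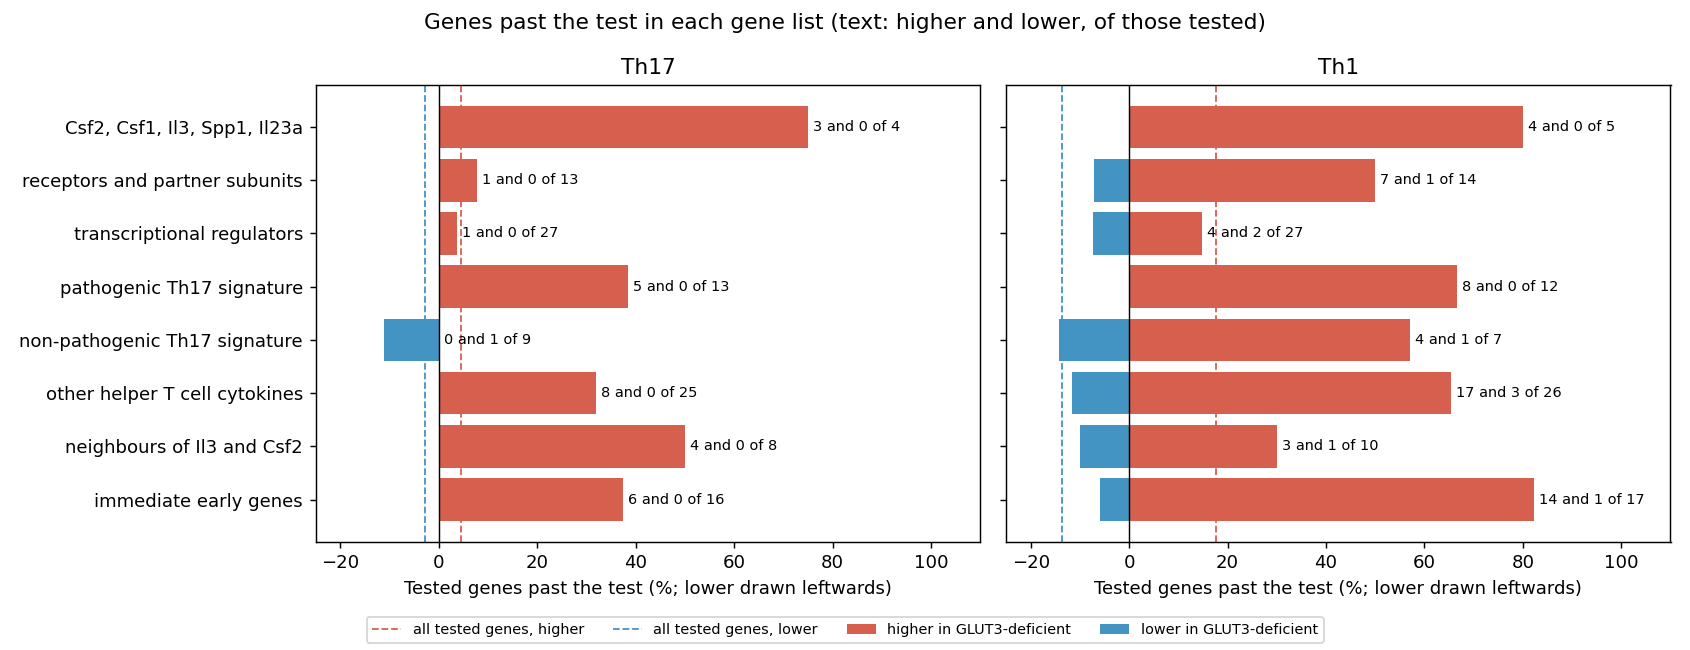
Share of tested genes past the test in each list in percent (higher drawn rightwards, lower leftwards, beside it the counts), for Th17 on the left and Th1 on the right; dashed lines give the share over all genes tested. Transcriptional regulators lie near the background in both panels, while immediate early genes reach 14 of 17 rising in Th1.

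Markers of other cells and of recent activation moved with the genotype in the same libraries as the cytokines. The shares over all tested genes, for this and the following marker lists, were 4.6% rising and 2.7% falling in Th17. In Th1 they were 17.6% rising and 13.7% falling. Immediate early genes rose for 6 of 16 tested in Th17 and 14 of 17 in Th1 (1 fell), and their summed level was 3137 to 3760 TPM in Th17 GLUT3-deficient and 1715 to 1989 TPM in Th17 wild-type libraries, and 3475 to 4162 TPM in Th1 GLUT3-deficient and 1314 to 1707 TPM in Th1 wild-type libraries. Gamma delta T cell markers summed to 166 to 261 TPM in Th17 GLUT3-deficient and 17.4 to 20.4 TPM in Th17 wild-type libraries, and to 173 to 276 TPM in Th1 GLUT3-deficient and 14.8 to 33.6 TPM in Th1 wild-type libraries. Deficient libraries lay above wild type for both lists in both lineages. Of the gamma delta genes, 4 of 5 tested rose in Th17 and 5 of 5 in Th1, Trdv4 having entered only through the deficient groups, and Sox13 was under 1 TPM in all 12 libraries. Without Th17 GLUT3-deficient replicate 2, 8 of 16 immediate early genes (1 fell) and 4 of 4 gamma delta genes rose in Th17.

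Mast cell and basophil markers, cells that can make interleukin 3, summed to 18.9 to 111 TPM in Th17 GLUT3-deficient and 2.19 to 4.26 TPM in Th17 wild-type libraries, and to 16.8 to 73.0 TPM in Th1 GLUT3-deficient and 2.56 to 3.44 TPM in Th1 wild-type libraries. In each deficient group 1 library was far above the other 2, which in Th17 reached no more than 30.5 TPM and in Th1 lay close to the lowest value. Of this list, 3 of 5 tested genes rose in Th17 (1 of 2 without replicate 2 of the deficient group) and 5 of 5 in Th1. Fcer1a, Cpa3 and Prss34 were under 1 TPM in all wild-type libraries and entered the test only through the deficient groups, so these counts are partly fixed by the filter. Its receptor gene Ms4a2 reached 1.61 TPM in Th17 and 1.27 TPM in Th1 GLUT3-deficient libraries, and Gata2 was at 0 in all Th17 wild-type libraries.

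Myeloid markers, of cells that can make Spp1, Csf1 and Il23a, summed to 249 to 541 TPM in Th17 GLUT3-deficient and 181 to 200 TPM in Th17 wild-type libraries, and to 117 to 167 TPM in Th1 GLUT3-deficient and 102 to 106 TPM in Th1 wild-type libraries. In Th17 3 of 7 tested myeloid genes rose and 1 fell, and in Th1 3 of 5 rose and 1 fell, with Fcer1g and Tyrobp rising in both. The macrophage and dendritic genes Csf1r, Itgam, Itgax and Adgre1 were under 1 TPM in all 12 libraries. Some other genes of the list did not overlap between the Th17 genotypes. Lyz2 was at 9.25 to 25.3 TPM against 1.95 to 4.48 TPM in Th17 wild type, and Cd74 at 136 to 399.5 TPM against 56.3 to 64.3 TPM. Cd68 overlapped, at 4.09 to 7.23 TPM in GLUT3-deficient and 3.15 to 5.40 TPM in wild-type Th17 libraries. Cd14 was at 1.45 to 2.94 TPM in the deficient and 0.379 to 0.845 TPM in the wild-type Th17 libraries. It was therefore tested in Th17 only because it was high in the deficient group. Mpeg1 was at 0.248 to 9.92 TPM and at most 0.0724 TPM in the same groups. In Th1, Cd74 was at 45.7 to 69.0 TPM in GLUT3-deficient and 18.1 to 21.5 TPM in wild-type libraries. Lyz2 and Cd68 overlapped between the Th1 genotypes. Ctss was lower in both lineages. In Th17 it was at 66.4 to 69.1 TPM in GLUT3-deficient and 112 to 121 TPM in wild-type libraries. In Th1 it was at 45.3 to 51.4 TPM in GLUT3-deficient and 69.0 to 73.9 TPM in wild-type libraries.

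Markers of CD8 T and NK cells summed to 90.7 to 108 TPM in Th17 GLUT3-deficient and 49.1 to 64.2 TPM in Th17 wild-type libraries, and to 195 to 283 TPM in Th1 GLUT3-deficient and 62.1 to 78.5 TPM in Th1 wild-type libraries. Of that list 2 of 6 tested genes rose in Th17, and 4 of 6 rose and 2 fell in Th1. The 2 that fell were the CD8 genes Cd8a and Cd8b1, and the 4 that rose were Klrk1, Klrd1, Klrc1 and Eomes. Eomes entered the test in both lineages only through the deficient groups, so these counts are partly fixed by the filter. Cd8a was at 0.534 to 1.27 TPM in Th1 GLUT3-deficient and 2.33 to 2.46 TPM in Th1 wild-type libraries. Cd8b1 was at 11.6 to 12.8 TPM and 18.05 to 23.95 TPM in the same groups. The higher sum in Th1 was therefore not a rise of the CD8 genes. Summed B cell markers overlapped between the genotypes, at 132 to 198 TPM in Th17 GLUT3-deficient and 114 to 153 TPM in Th17 wild-type libraries, and at 68.4 to 475 TPM in Th1 GLUT3-deficient and 88.1 to 112 TPM in Th1 wild-type libraries. The middle Th1 GLUT3-deficient library had 332 TPM. Of the tested B cell genes, 1 of 5 rose in Th17 and 0 of 5 in Th1. Single genes could lie apart, as Igkc did in Th17, at 60.3 to 114 TPM in GLUT3-deficient and 24.1 to 36.3 TPM in wild-type libraries. The B cell factor Pax5, and Klrb1c of NK cells, were under 1 TPM in all 12 libraries. Markers of the Th1 lineage summed to 249 to 594 TPM in Th17 GLUT3-deficient and 64.4 to 96.1 TPM in Th17 wild-type libraries, with 3 of 6 genes rising. Markers of the Th17 lineage summed to 477 to 660 TPM in Th17 GLUT3-deficient and 667 to 1191 TPM in Th17 wild-type libraries, without overlap, and none of their 6 genes passed the test. Helper T cell markers summed to 7220 to 10281 TPM in Th17 GLUT3-deficient and 7199 to 8487 TPM in Th17 wild-type libraries, and to 9477 to 10341 TPM in Th1 GLUT3-deficient and 6956 to 7895 TPM in Th1 wild-type libraries, with 5 of 7 genes rising in Th1. The part of these cells in the cytokine levels was not tested.

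**Figure D5:**
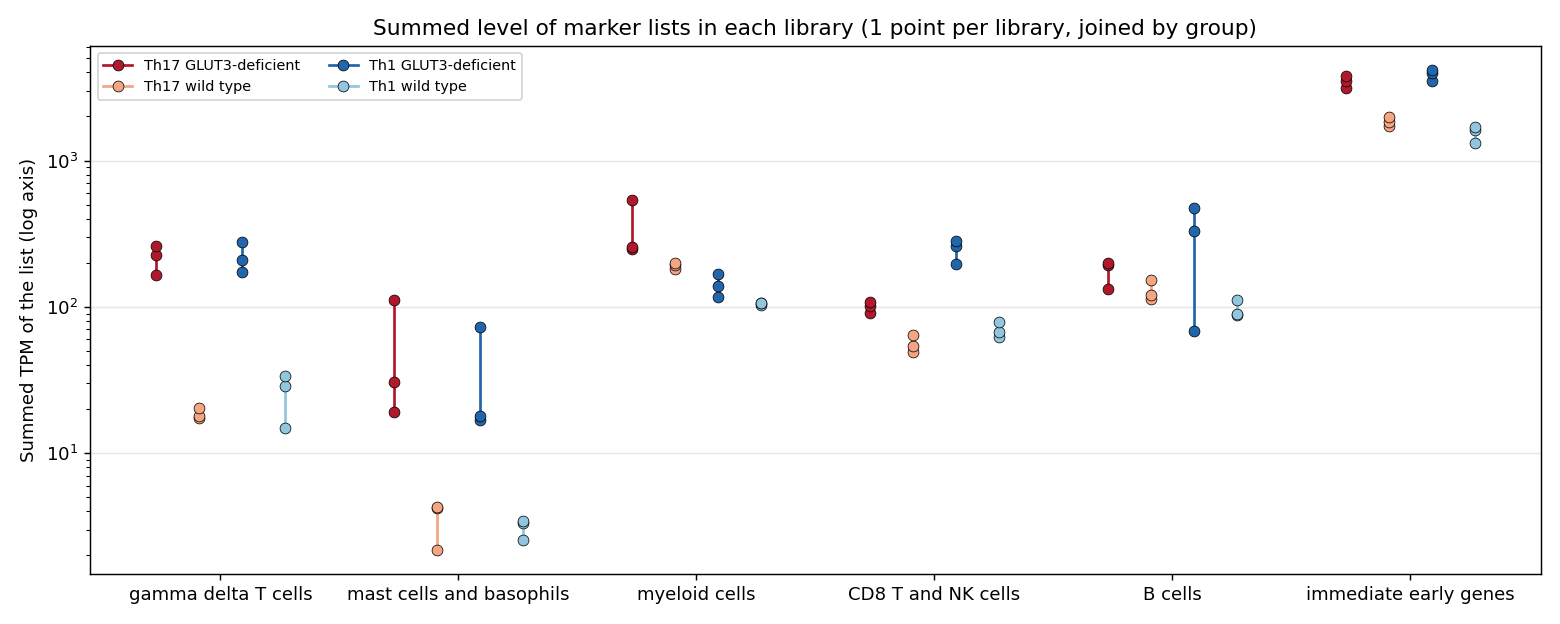
Summed TPM of each marker list on a log axis, with 1 point per library and a line joining the libraries of a group. Gamma delta T cell and mast cell lists lie higher in all GLUT3-deficient libraries than in the wild-type libraries of either lineage, and B cell lists overlap.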

How the data were processed

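Total RNA of 12 libraries was measured with the SMART-Seq v4 kit and Nextera XT, which do not mark the strand, and sequenced from 1 end, per the labels' protocols. The authors deposited 1 table of TPM per lineage. The build is GRCm38.p6 and the tools, listed without roles, include STAR 2.7.2b, featureCounts 1.6.4, DESeq2 1.24.0 and cutadapt, per the submitters' processing notes. The deposited tables hold other columns beside TPM only for gene annotation. Multiplied by exon length, 100% of TPM values came to a whole number of reads to within 0.02, which gave each library's reads (16596283 to 28496606). Intervals and limits of counts cover counting error only.

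The test was limma 3.58.1 (R 4.3.3) on log2(TPM + 1) for genes reaching 1 TPM in 3 or more libraries entering the fit (mean-variance trend, two-sided, Benjamini-Hochberg over all genes tested, threshold 0.05). Genotypes were compared on 6 libraries per lineage, and the difference of the effects and the lineages in a model of 4 group means over 12 libraries. The steps were also run on simulated reads with the same spread for every gene and no library that stood apart. That run checks the steps and not how the test behaves on these libraries. The members and gene lists were chosen with earlier results of these data known. Genes that could be named are the 5 cytokines, Slc2a3, label checks, key receptors and Bhlhe40, up to 4 genes per list and comparison with the smallest adjusted p among those past the test, and the 3 most alike genes per cytokine. Il12b, Il3ra, Gm12223, LOC115487722 and single genes of the marker lists were added after values were seen. The text gives those that bear on the cytokines, and others that the rule allows are not reported here. Promoter sequences are RefSeq's, on GRCm38.p6; 4 of the 5 genes had one, and those of Csf2 and Csf1 are not shown.

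Deviations from group means correlated between same-numbered libraries at 0.14, 0.43 and 0.24 for the Th17 genotypes and at 0.72, 0.26 and 0.53 for wild-type Th17 and Th1, all over 0.1. On that ground alone these numbers were taken to pair libraries, which bears only on the replicate block. All main tests were unpaired. Correlations between other-numbered libraries ran from -0.43 to 0.11 for the Th17 genotypes and from -0.61 to 0.28 for wild type, so some of these also exceeded 0.1. For the Th1 genotypes (same-numbered 0.19, 0.24 and -0.07) and the GLUT3-deficient lineages (0.22, -0.04 and -0.19) the numbers were not taken to pair libraries, though the block was fitted there too. The alternatives were pseudocounts of 0.1 and 5, no filter, median-of-ratios scaling, voom on recovered reads, a replicate block, all 12 libraries in the genotype fits and leaving out each library.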

Additional observations from a re-analysis of the deposited data

Results flagged for a closer look

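Spp1 responded differently to GLUT3 loss in the lineages: the log2 fold change was 1.98 in Th17 and 4.91 in Th1, and the difference, Th17 minus Th1, was -2.93 ± 0.54 (limma adjusted p = 0.0346 in the model of all 12 libraries, with a call under 6 of 18 other settings). Il23a did so too, with log2 fold changes of 1.38 in Th17 and 4.51 in Th1 and a difference of -3.13 ± 0.45 (limma adjusted p = 0.00974, called under 17 of 18 other settings). Both were higher in every GLUT3-deficient than in every wild-type library of each lineage.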

How the results depend on the processing

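Of 384 single-gene values under other settings, 332 kept their direction and their side of the threshold, 27 lost and 19 gained a call and 6 changed sign. Leaving out 1 library gave 109 to 2158 genes called in Th17 (1009 with all), with 0 to 2 of the 5 cytokine genes higher, 2594 to 4587 in Th1 (4220) with 0 or 1 lower, 21 to 171 for the difference between lineages (93) with 0 to 2 cytokine genes, 449 to 1219 for Th17 against Th1 in GLUT3-deficient cells (861) and 309 to 1582 in wild type (529) with 1 or 2 cytokine genes lower. The 2158, 171, 1219 and 1582 all arose without Th17 GLUT3-deficient replicate 2. With all 12 libraries in the model, 2933 genes were called in Th17 and 2568 in Th1. With a pseudocount of 0.1 the difference between lineages had 44 calls, 1 of them a cytokine gene, and with no filter on low values 1 cytokine gene was called there and 1 in Th17. Il3 in Th1 gave the 1 lower call under median-of-ratios scaling, voom and the replicate block (adjusted p = 0.0226). In wild-type Th17 against Th1, 2 cytokine genes were lower with a pseudocount of 0.1, median-of-ratios scaling, voom and the replicate block. Where the numbers were not taken to pair libraries, the block moved Csf2 in GLUT3-deficient Th17 against Th1 to adjusted p = 0.0125. Where they were, the block changed no call of a cytokine gene other than Csf1 in wild type. Of values that did not pass, the Csf1 difference between lineages changed sign to -0.25 with a pseudocount of 5 and to -0.10 without Th17 GLUT3-deficient replicate 2, and Il23a in wild-type Th17 against Th1 to -0.047 with median-of-ratios scaling, -0.12 without Th17 wild type replicate 2, and -0.17 and -0.04 without Th1 wild type replicates 2 and 3. Without 1 library these ranged from -0.10 to 0.90 for Csf1 and from -0.17 to 0.40 for Il23a. The cause was not tested. With low reads of Il3 and of wild-type Csf1 in Th17, depth limits what could be detected there.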
